A study of Mus musculus with 6 samples.

Results

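SR proteins and heterogeneous nuclear ribonucleoproteins (hnRNPs) were described here as a group of 28 genes, 10 with the symbol Srsf and 18 with the symbol Hnrnp. They were taken by symbol from the 22513 gene entries of the expression table, and the rule uses no expression value. The 6 libraries were poly-A RNA-seq of fetal thymic stroma on a C57BL/6 background. Lobes from E15.5 embryos had been cultured for 4 days under 2-deoxyguanosine (2-DG), which depletes thymocytes and leaves the stroma. They were WT or carried the germline Jmjd6-/- deletion in every cell, and were either unstimulated (1 library per genotype) or stimulated for 4 days with RANKL (2 libraries per genotype), the cytokine that drives maturation of medullary thymic epithelial cells (mTECs). Jmjd6-/- embryos came from crosses of heterozygotes. The design text speaks of technical duplicates and the study's methods of 2 samples per category, so that p-values and intervals may measure only a technical spread.

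Splicing joins exons at sites that are often weak and need help from nearby RNA sequences. SR proteins bind exonic enhancers through RNA recognition motifs and recruit the splicing machinery through a domain rich in arginine and serine, whereas many hnRNPs bind silencers and oppose them. The activity of SR proteins is set largely by phosphorylation, and the levels of both families are held by feedback, in which an excess of the protein shifts its own transcript to a form that is degraded or kept in the nucleus. Jmjd6 is an oxygenase that hydroxylates lysines of splicing regulatory proteins, among them U2AF65 and proteins with arginine-serine stretches. The comparison of genotypes therefore asks whether the mRNA of these factors differed in the absence of Jmjd6, and the comparison of conditions whether it differed after RANKL.

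Values were the authors' FPKM, fragment numbers scaled to transcript length and to the mapped fragments of the library, and differences were taken as log2 of FPKM with 0.1 added. Jmjd6 itself was 25.9 to 32.5 FPKM in the 3 WT libraries and 1.32 to 1.96 FPKM in the 3 Jmjd6-/- libraries, in accord with the labels. Mettl23, the gene next to Jmjd6, was also near 0 FPKM in the 3 Jmjd6-/- libraries (below). In every genotype difference given here, loss of Jmjd6 and loss of Mettl23 RNA therefore cannot be told apart. Thymic epithelium was present throughout, with the epithelial marker Epcam at 156 to 209 FPKM, whereas 10 T-cell markers summed to 1.11 to 3.68 FPKM and Cd3e was 0 in 5 libraries and 0.0345 FPKM in the sixth. Depth was estimated at about 15000000 to 33000000 fragments per library. WT RANKL replicate 2 stood apart from WT RANKL replicate 1 in a way that followed GC content (below), and differences of named genes that moved by over 1.5 times without it are also given without it.

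The promoters of Srsf10, the gene with the largest genotype difference, and of Srsf5 and Srsf6, the 2 with the largest RANKL differences, are shown for context. They are RefSeq windows of GRCm38.p6, from 250 bases before to 50 bases after the annotated start, printed 5′ to 3′ on the strand of the gene. The Srsf10 window lies at chr4:135855821-135856120 on the plus strand, that of Srsf5 at chr12:80945249-80945548 on the plus strand, and that of Srsf6 at chr2:162931258-162931557 on the plus strand. Capitals mark the CCAAT box (CCAAT) and the GC box (GGGCGG), on either strand.
Srsf10: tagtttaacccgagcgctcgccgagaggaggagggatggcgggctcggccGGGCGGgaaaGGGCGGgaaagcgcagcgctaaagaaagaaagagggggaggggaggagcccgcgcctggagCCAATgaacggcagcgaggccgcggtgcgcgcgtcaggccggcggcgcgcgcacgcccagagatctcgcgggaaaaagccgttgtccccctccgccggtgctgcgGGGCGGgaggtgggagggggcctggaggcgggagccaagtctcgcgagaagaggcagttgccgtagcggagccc
Srsf5: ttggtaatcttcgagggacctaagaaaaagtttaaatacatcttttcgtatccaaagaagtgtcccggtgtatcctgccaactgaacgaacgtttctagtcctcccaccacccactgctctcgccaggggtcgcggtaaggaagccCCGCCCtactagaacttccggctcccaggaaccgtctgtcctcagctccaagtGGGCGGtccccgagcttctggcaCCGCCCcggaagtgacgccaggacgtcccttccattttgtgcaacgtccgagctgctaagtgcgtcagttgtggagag
Srsf6: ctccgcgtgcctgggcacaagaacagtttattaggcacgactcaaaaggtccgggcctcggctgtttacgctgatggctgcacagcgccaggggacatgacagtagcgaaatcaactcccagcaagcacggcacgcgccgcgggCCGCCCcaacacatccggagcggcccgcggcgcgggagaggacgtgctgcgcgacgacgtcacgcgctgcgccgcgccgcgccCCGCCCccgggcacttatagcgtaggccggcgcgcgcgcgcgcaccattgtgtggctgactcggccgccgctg
The Srsf10 window held 1 CCAAT box and 3 GC boxes, the Srsf5 window 3 GC boxes and the Srsf6 window 2 GC boxes, and none of the 3 held the TATA box (TATAAA, both strands). All 28 genes but Hnrnpul2 had a window, and where a gene had several the first listed was used. Over these 27 windows, 21 (77.8%) held a GC box, against 35.9% of 27025 promoters of the same length, and 16 (59.3%) a CCAAT box, against 37.9%. A TATA box was found in 4 (14.8%, against 14.2%) and the NF-kB consensus in 2 (7.41%, against 6.66%). The windows were also richer in G and C, with a median of 68.3% against 52.7% over all promoters. These are matches of letters, and binding was not measured.

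Both families were abundant in every library. All 28 genes passed the filter (a mean of at least 0.1 FPKM), and 27 had a mean of at least 10 FPKM, Srsf12 being the exception. The 10 Srsf genes summed to 0.158 to 0.203% of all FPKM of a library and the 18 Hnrnp genes to 0.487 to 0.644%, and the ratio of the Srsf to the Hnrnp sum stayed between 0.304 and 0.348. In both sums the lowest share was in WT RANKL replicate 2.

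Among SR protein genes, Srsf5 (SRp40) had the highest level per length, with 315 FPKM unstimulated and 234 and 202 FPKM with RANKL in WT, and 262 FPKM unstimulated and 246 and 226 FPKM with RANKL in Jmjd6-/-. Srsf5 alone accounted for 22.6 to 29.4% of the Srsf sum. Next came Srsf2 (SC35, a classical marker of nuclear speckles), with a mean of 163 FPKM over the 6 libraries, and Srsf3 (SRp20, which also takes part in mRNA export), with a mean of 136 FPKM. The range of Srsf5 lay above that of Srsf2 in all 6 libraries, while the ranges of Srsf2 and Srsf3 overlapped. Srsf9 (SRp30c) ranged from 44.0 to 51.1 FPKM and Srsf4 (SRp75) from 30.7 to 39.0 FPKM, without overlap between them. Srsf12, a relative of Srsf10, was far below the others at 1.25 to 2.11 FPKM, which stands for an estimated 56.9 to 176 fragments and makes it the least precise of the 28. Of the 9 neighbouring pairs in the order of Srsf means, 5 had ranges that did not overlap.

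Among hnRNP genes, the 4 with the highest means held 47.5 to 51.3% of the Hnrnp sum. Hnrnpa2b1, which binds silencers and sorting signals in RNA, ranged from 356 to 480 FPKM, Hnrnpa3 from 328 to 443 FPKM, Hnrnpk, which binds C-rich RNA, from 307 to 389 FPKM, and Hnrnpa1, the best known antagonist of SR proteins, from 256 to 360 FPKM. The ranges of neighbours among these 4 overlapped, although within each library Hnrnpa2b1 was above Hnrnpa3 and Hnrnpk above Hnrnpa1 in 6 of 6, and Hnrnpa3 above Hnrnpk in 4 of 6. At the low end stood Hnrnpul1 with 41.9 to 48.9 FPKM, Hnrnpd (AUF1, which binds AU-rich elements in 3′ UTRs) with 23.6 to 26.2 FPKM and Hnrnph3 with 20.9 to 26.5 FPKM. Only 5 of the 17 neighbouring Hnrnp pairs had ranges that did not overlap. The entries of Hnrnpa1 and Hnrnpa3 are merged in the table with the pseudogene symbols Gm5643 and Gm6793, and the loci of Hnrnpk, Hnrnpab and Hnrnph3 overlap those of Rmi1, Agxt2l2 and Rufy2, so reads of these genes may be shared.

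**Figure D1:**
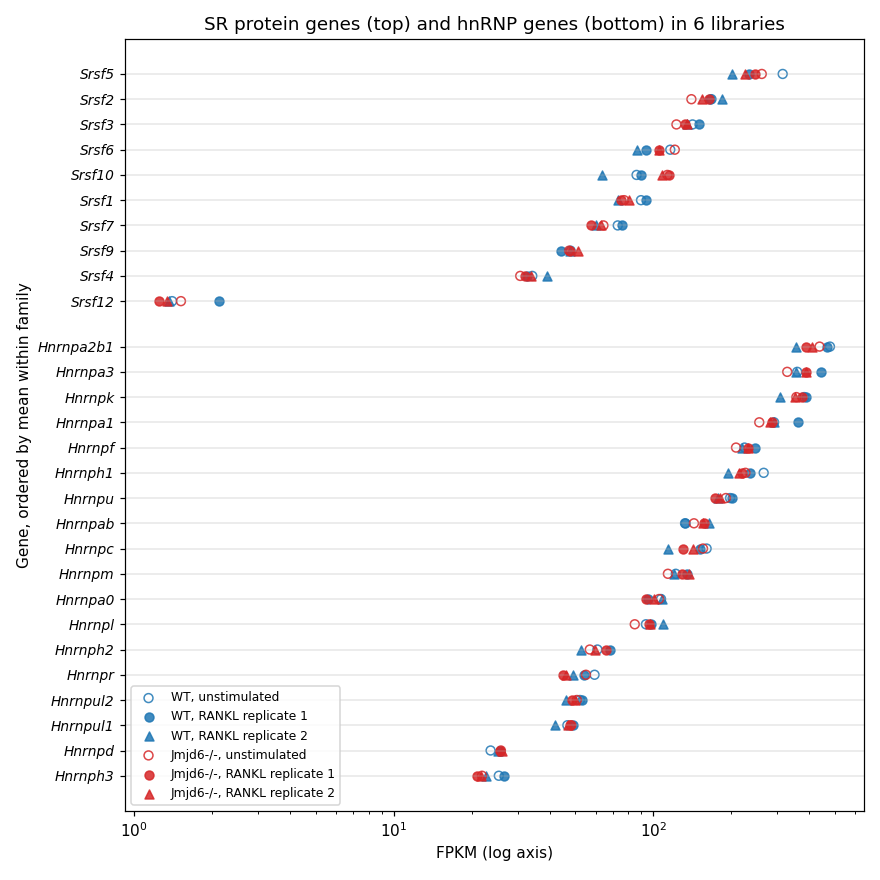
FPKM (log axis) of the 10 Srsf genes and the 18 Hnrnp genes, ordered by mean within each family, with 1 point per library. Points of a gene lie close together in both genotypes and conditions; Srsf10 has the widest spread, 63.7 to 116 FPKM, and Srsf12 lies far below the rest at 1.25 to 2.11 FPKM.

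The spread over all 6 libraries was small. The ratio of the highest to the lowest library had a median of 1.29 over the 28 genes, from 1.11 for Hnrnpd to 1.81 for Srsf10, beside a median of 1.39 over the 7273 entries averaging 10 FPKM or more. By the study's criterion of a range above 3-fold (with 0.1 FPKM added), 0 of the 28 genes passed, against 14.3% of all entries and 4.78% of those averaging 10 FPKM or more. The genes thus varied within less than 2-fold at every level of expression from Srsf12 to Hnrnpa2b1.

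Under RANKL, none of the 28 genes differed between Jmjd6-/- and WT in limma at an adjusted p under 0.05, while 2.34% of the 15894 entries tested did. At an unadjusted p under 0.05 the count was 1 (Srsf10), beside 18.8% of all entries tested. The median absolute log2 difference was 0.09 over the 28 genes and 0.14 over entries averaging 10 FPKM or more. The 95% interval lay within ±1 for 26 genes and within ±0.5 for 23, so that changes of 2-fold were outside the interval for all but Srsf10 and Srsf12. Like the p-values, these intervals may hold only a technical spread, and would then not bound the difference between embryos. The 2 Jmjd6-/- and 2 WT libraries did not overlap in 11 genes (39.3%), 4 higher and 7 lower in Jmjd6-/-, beside 50.7% of all entries tested.

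With both conditions pooled and RANKL as a term, the test between genotypes called 0 of 28 genes at an adjusted p under 0.05 and 5.44% of entries tested, and 1 (Srsf10) did at an unadjusted p under 0.05, against 22.1%. This comparison shares 4 libraries with the one under RANKL. The 3 libraries of each genotype did not overlap in 6 genes (21.4%, beside 18.3% of all entries tested). Srsf10 and Hnrnpd were higher in Jmjd6-/-, and Hnrnpa1, Hnrnph3, Srsf2 and Srsf3 were lower, though with differences that, apart from that of Srsf10, had intervals reaching 0. An exact permutation test of a single gene cannot give a two-sided p under 0.333 for 2 against 2 libraries or under 0.1 for 3 against 3.

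Srsf10 (SRp38), an SR protein that represses splicing when it loses its phosphates, as in heat shock and mitosis, was the gene with the largest genotype difference. WT values were 86.3 FPKM unstimulated and 89.9 and 63.7 FPKM with RANKL, and Jmjd6-/- values were 113 FPKM unstimulated and 116 and 108 FPKM with RANKL. All 3 Jmjd6-/- libraries thus lay above all 3 WT libraries, and the lowest value was that of WT RANKL replicate 2. Under RANKL the log2 difference was 0.56 ± 0.18 (SE; 95% interval 0.10 to 1.02), with an adjusted p of 0.188 in limma. Over both conditions it was 0.51 ± 0.13 (95% interval 0.18 to 0.83), a 1.42-fold higher level, with an adjusted p of 0.0852 in limma. Neither passed the threshold.

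Whether Srsf10 passed the threshold depended on single libraries. Without WT RANKL replicate 2 the log2 difference was 0.31 under RANKL (adjusted p = 0.0753 in limma) and 0.35 over both conditions (adjusted p = 0.0277). Without WT RANKL replicate 1 it was 0.81 (adjusted p = 0.0331) and 0.63 (adjusted p = 0.0260). Without Jmjd6-/- RANKL replicates 1 and 2 the adjusted p rose to 0.796 and 0.682 under RANKL and to 0.338 and 0.292 over both conditions, with differences of 0.46 to 0.61. Without either unstimulated library the difference over both conditions was 0.56 (adjusted p of 0.188 and 0.189). Under RANKL, leaving out either WT RANKL library leaves the spread to the 2 Jmjd6-/- RANKL libraries, which were closer to each other than the WT pair. Leaving out either Jmjd6-/- RANKL library leaves it to the WT pair. Srsf10 was 11.3 to 11.8% of the Srsf sum in Jmjd6-/- and 7.14 to 9.15% in WT. These shares rest on the same Srsf10 values and are not separate evidence of the difference.

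Marker levels of some cell types differed by genotype. The summed level of 8 mesenchymal markers was 768 to 841 FPKM in WT and 370 to 496 FPKM in Jmjd6-/-, with 5 of 8 lower at an adjusted p under 0.05 over both conditions, and that of 6 endothelial markers was 13.2 to 24.1 FPKM in WT and 4.20 to 8.76 FPKM in Jmjd6-/-, with 4 of 6 lower. Of 5 mast cell markers 4 were lower, at summed levels of 2.03 to 9.55 FPKM in all. Over both conditions, 5.44% of all entries tested were called by genotype in either direction. Macrophage markers (6, none called by genotype) summed to 295 to 474 FPKM, 2 of 11 thymic epithelial markers were higher and 1 of 19 proliferation genes was lower. All 19 proliferation genes had negative differences over both conditions, with a median log2 difference of -0.31 beside 0.01 over all entries tested. With RANKL, however, their summed levels overlapped between genotypes. The sums were 581 and 417 FPKM in WT RANKL replicates 1 and 2, and 391 and 430 FPKM in Jmjd6-/-. Unstimulated, they were 300 FPKM in WT and 250 FPKM in Jmjd6-/-. The part of these marker and proliferation genes in the Srsf10 difference was not tested. Fewer cells of a type cannot be told apart from less RNA per cell in these bulk libraries.

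The other genes with the largest positive differences under RANKL were Srsf6, Srsf5, Srsf9 and Hnrnpab. Srsf6 (SRp55) was 94.0 and 86.4 FPKM in WT with RANKL and 105 and 105 FPKM in Jmjd6-/- with RANKL. The groups did not overlap, and the log2 difference of 0.22 ± 0.11 (SE) had an adjusted p of 0.353 in limma, which became 0.0362 without WT RANKL replicate 1, 0.0966 without WT RANKL replicate 2 and 1 without either Jmjd6-/- RANKL library. The differences of Srsf5, Srsf9 and Hnrnpab were 0.12, 0.11 and 0.08 on the log2 scale, each with an interval that reached 0. Without WT RANKL replicate 1 they were 0.22, 0.049 and -0.067, and without WT RANKL replicate 2 they were 0.011, 0.17 and 0.23. Srsf9 was 0.063 without Jmjd6-/- RANKL replicate 2, and Srsf5 was 0.057 without Jmjd6-/- RANKL replicate 1 and 0.18 without replicate 2.

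The largest negative differences under RANKL were those of Srsf12, Hnrnph3, Hnrnpa1, Hnrnpr and Srsf7. Srsf12 was 2.11 and 1.36 FPKM in WT with RANKL and 1.25 and 1.34 FPKM in Jmjd6-/- with RANKL. The difference of -0.37 ± 0.28 (SE, log2; adjusted p = 0.556 in limma) was -0.075 without WT RANKL replicate 1 and -0.67 without WT RANKL replicate 2. Hnrnph3, of the subfamily that binds runs of G, was 26.5 and 22.7 FPKM in WT and 20.9 and 21.7 FPKM in Jmjd6-/-, with a log2 difference of -0.20 ± 0.13 (adjusted p = 0.483), which was -0.092 without WT RANKL replicate 1 and -0.32 without replicate 2. Hnrnpa1 was 360 and 292 FPKM against 286 and 281 FPKM, Hnrnpr 53.9 and 49.0 FPKM against 44.8 and 46.2 FPKM, and Srsf7 (9G8) 76.0 and 60.3 FPKM against 57.5 and 62.9 FPKM. In Hnrnph3, Hnrnpa1 and Hnrnpr the groups did not overlap, whereas those of Srsf7 did. The log2 differences of Hnrnpa1, Hnrnpr and Srsf7 were -0.19, -0.18 and -0.17, with -0.044, -0.11 and -0.0028 without WT RANKL replicate 1 and -0.34, -0.25 and -0.34 without replicate 2, and that of Srsf7 was -0.11 without Jmjd6-/- RANKL replicate 1.

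Srsf2 lies just beyond Mettl23, the neighbour of Jmjd6, at chr11:116849897-116853094 (mm10) on the minus strand, with Mettl23 at chr11:116843515-116849740. Mettl23 was 24.5 to 31.6 FPKM in WT and 0 to 0.0949 FPKM in Jmjd6-/-. Srsf2 was 168, 165 and 184 FPKM in WT and 140, 164 and 154 FPKM in Jmjd6-/-, each starting with the unstimulated library. Every Jmjd6-/- value was under every WT value, by a margin that was narrow between the RANKL libraries, and the log2 difference was -0.17 ± 0.08 (SE) over both conditions (adjusted p = 0.286 in limma) and -0.13 ± 0.12 under RANKL (adjusted p = 0.626; -0.21 and -0.053 without WT RANKL replicates 1 and 2, and -0.085 without Jmjd6-/- RANKL replicate 2). Srsf2 thus kept most of its level in the libraries in which Jmjd6 and Mettl23 were near 0.

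**Figure D2:**
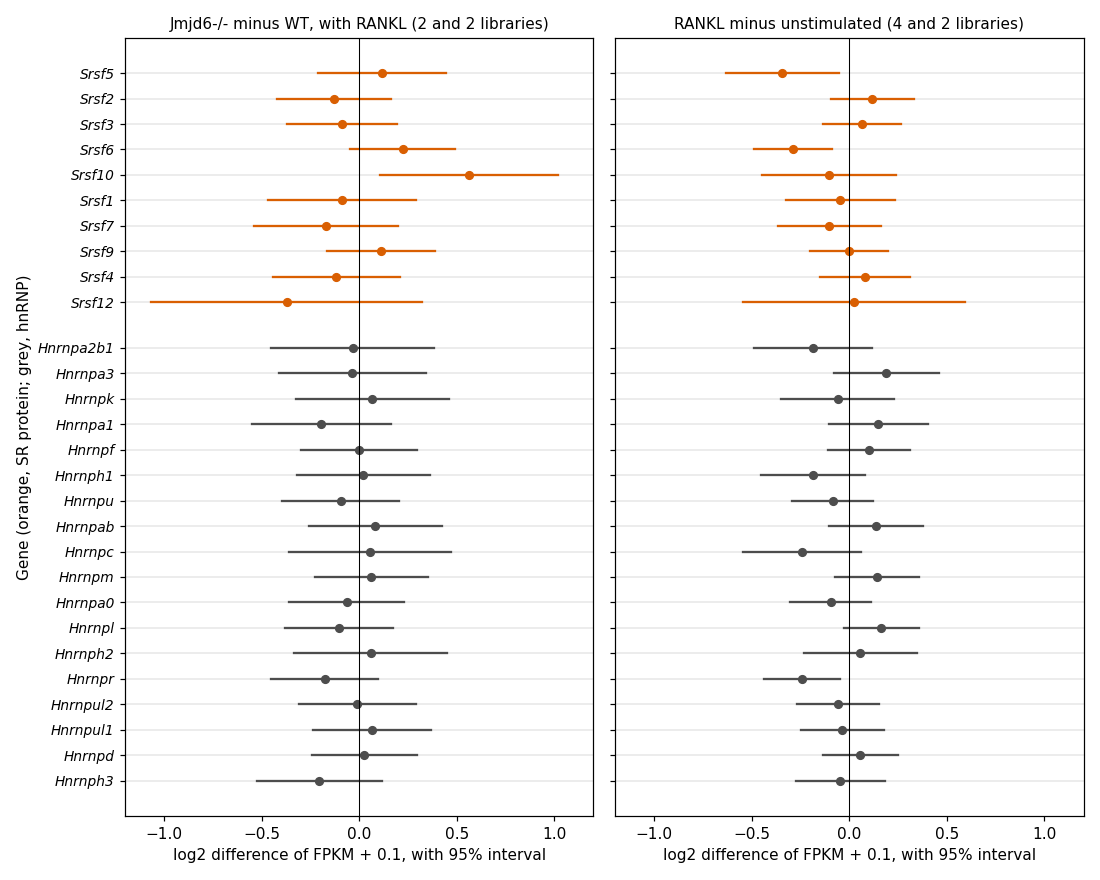
Log2 differences of FPKM + 0.1 with 95% intervals for the 28 genes (orange, Srsf; grey, Hnrnp): Jmjd6-/- minus WT under RANKL (left) and RANKL minus unstimulated over both genotypes (right). Under RANKL, Srsf10 stands farthest from 0 at 0.56 (0.10 to 1.02); on the right, Srsf5, Srsf6 and Hnrnpr have intervals below 0, at -0.34, -0.29 and -0.24.

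In unstimulated stroma, with 1 library per genotype, no test was run. The log2 ratio of Jmjd6-/- to WT ranged from -0.27 to 0.39 over the 28 genes. It was negative in 22 of 28, with a median of -0.11, beside a median of 0 over all entries tested. The share of negative ratios over all entries was not taken, and many of those entries lie below the 10 FPKM that most of the 28 exceed. The highest ratio was that of Srsf10.

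After RANKL, none of the 28 genes passed an adjusted p under 0.05 over both genotypes, while 14.7% of the entries tested did. At an unadjusted p under 0.05 the count was 3, all lower (Srsf5, Srsf6 and Hnrnpr), beside 29.7% of all entries. The median absolute log2 difference was 0.10 over the 28 genes and 0.16 over entries averaging 10 FPKM or more, and the 95% interval lay within ±1 for all 28 and within ±0.5 for 25. The 4 RANKL and 2 unstimulated libraries did not overlap in 5 genes (17.9%), 1 higher (Hnrnpl) and 4 lower (Hnrnpc, Hnrnpr, Srsf5 and Srsf6), beside 37.4% of all entries tested.

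Srsf5 had the largest difference with RANKL. Its 2 unstimulated values, 315 and 262 FPKM, lay above all 4 RANKL values, 202 to 246 FPKM, and the log2 difference was -0.34 ± 0.12 (SE; adjusted p = 0.114 in limma). It rested partly on the unstimulated WT library, without which it was -0.15 (adjusted p = 0.767), and was -0.54 without the unstimulated Jmjd6-/- library (adjusted p = 0.132). Within genotypes, Srsf5 went from 315 FPKM to a mean of 218 ± 22.8 FPKM (SD, n = 2) in WT and from 262 FPKM to 236 ± 13.9 FPKM in Jmjd6-/-. The difference between these responses was 0.39 ± 0.23 (SE, log2) with an adjusted p of 1 in limma.

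The unstimulated values of Srsf6, 116 FPKM in WT and 121 FPKM in Jmjd6-/-, lay above the 86.4 to 105 FPKM of the 4 RANKL libraries. The log2 difference was -0.29 ± 0.08 (SE), with an adjusted p of 0.0687 in limma that became 0.0364 without WT RANKL replicate 1 and 0.0288 without WT RANKL replicate 2, and 0.196 to 0.575 when any of the other 4 libraries was left out. Hnrnpr, a relative of Syncrip, was 59.4 and 55.1 FPKM unstimulated and 44.8 to 53.9 FPKM with RANKL, a difference of -0.24 ± 0.08 (adjusted p = 0.0988; 0.0312 and 0.0495 without WT RANKL replicates 1 and 2, and 0.281 to 0.456 without 1 of the other 4 libraries). In both genes the decrease was seen in each genotype, but neither passed the threshold when all libraries were used.

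The other named genes had intervals that reached 0. Hnrnpc, which binds U-rich tracts of pre-mRNA, was 161 and 156 FPKM unstimulated and 114 to 151 FPKM with RANKL, and Hnrnph1 was 266 and 227 FPKM unstimulated and 195 to 236 FPKM with RANKL, with log2 differences of -0.24 and -0.19 (adjusted p of 0.254 and 0.310 in limma). Without WT RANKL replicate 2 they were -0.15 and -0.11, and Hnrnph1 was -0.061 without the unstimulated WT library and -0.31 without the unstimulated Jmjd6-/- library. On the positive side were Hnrnpa3, Hnrnpl, Hnrnpa1, Hnrnpm and Hnrnpab, with log2 differences of 0.19, 0.16, 0.15, 0.14 and 0.14. Without WT RANKL replicate 2 those of Hnrnpa1 and Hnrnpab were 0.21 and 0.071, without replicate 1 that of Hnrnpa1 was 0.084 and that of Hnrnpa3 0.13, and that of Hnrnpm was 0.22 and 0.062 without the unstimulated WT and Jmjd6-/- libraries. Hnrnpl, which binds CA-rich RNA and regulates splicing in lymphocytes, was 93.7 and 84.9 FPKM unstimulated and 95.9 to 109 FPKM with RANKL (adjusted p = 0.228). Hnrnpa3 was 359 and 328 FPKM unstimulated and 354 to 443 FPKM with RANKL (adjusted p = 0.310, and 0.0394 without WT RANKL replicate 2). Both RANKL libraries lay below the unstimulated library in each genotype for 6 genes (Hnrnph1, Srsf5, Hnrnpc, Srsf6, Hnrnpr and Hnrnpa2b1) and above it in each genotype for 3 (Hnrnpab, Hnrnpa1 and Hnrnpl). Srsf9 was lower in WT (48.0 FPKM unstimulated, 44.0 and 47.9 FPKM with RANKL) and higher in Jmjd6-/- (47.5 FPKM, then 48.0 and 51.1 FPKM). In each genotype the nearer RANKL library was close to the unstimulated one. Of all entries tested, 28.2% were below in each genotype, 25.7% above in each and 8.03% opposite.

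The response to RANKL was then compared between genotypes. No gene of the 28 passed the interaction test at an adjusted p under 0.05, nor did any entry of the table (0% of entries tested), and at an unadjusted p under 0.05 the counts were 0 of 28 and 4.18% of all entries. The intervals were wide here, within ±1 for 27 genes and within ±0.5 for 0. For each of the 28 genes the interval thus still held differences in response beyond 0.5 in at least 1 direction.

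**Figure D3:**
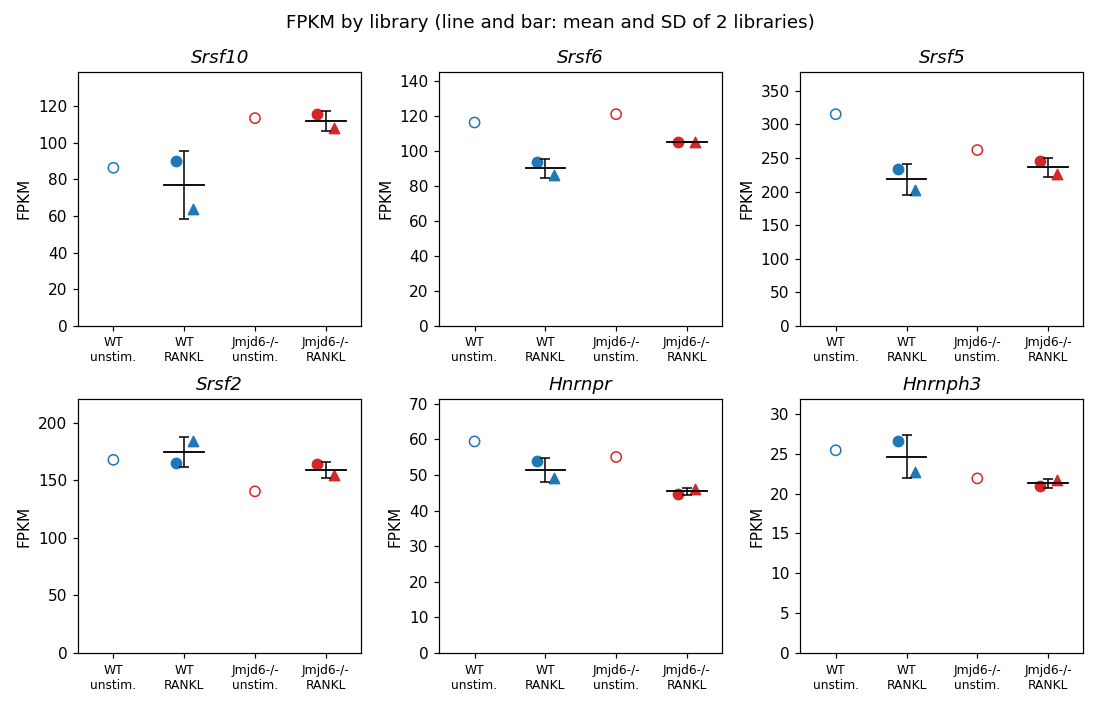
FPKM by library for Srsf10, Srsf6, Srsf5, Srsf2, Hnrnpr and Hnrnph3 (axes from 0), with open circles for unstimulated, filled circles for RANKL replicate 1 and triangles for RANKL replicate 2; lines and bars give the mean and SD of 2 RANKL libraries. For Srsf10 the Jmjd6-/- points (108 to 116 FPKM) lie above the WT points (63.7 to 89.9 FPKM); for Srsf5, Srsf6 and Hnrnpr the unstimulated points lie above the RANKL points.

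The proteins that act on or beside the 2 families gave few calls. Over all entries tested, the shares called in either direction were 2.34% by genotype under RANKL, 5.44% by genotype over both conditions and 14.7% with RANKL. Of 11 kinases and import receptors of SR proteins, 0 passed under RANKL between genotypes, 1 was lower in Jmjd6-/- over both conditions (Clk2) and 1 was lower with RANKL (Clk1). Clk1, a nuclear kinase that phosphorylates the arginine-serine domain, was 133 and 144 FPKM unstimulated and 88.9 to 105 FPKM with RANKL, without overlap (log2 difference -0.47 ± 0.09 SE, adjusted p = 0.0180 in limma). Clk2, a kinase of the same family, was 25.9 to 28.8 FPKM in WT and 18.0 to 18.4 FPKM in Jmjd6-/-, also without overlap (-0.56 ± 0.08, adjusted p = 0.0151). Both calls were kept without either WT RANKL library, and both were lost, with differences of nearly the same size, when any of the other 4 libraries was left out (adjusted p of 0.0824 to 0.212 for Clk1 and 0.0775 to 0.114 for Clk2).

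Of 31 hnRNP-like proteins with other symbols, 1 was lower with RANKL and none was called by genotype. This was Rbmx (hnRNP G), at 52.9 and 42.3 FPKM unstimulated and 32.8 to 43.3 FPKM with RANKL, values that overlap between conditions but not within a genotype (log2 difference -0.31 ± 0.08 SE, adjusted p = 0.0443 in limma, and 0.144 to 0.348 without a Jmjd6-/- RANKL or unstimulated library). Of 7 arginine methyltransferases, which modify many hnRNPs, Prmt6 was higher in Jmjd6-/- over both conditions, at 14.2 to 15.6 FPKM against 10.3 to 11.2 FPKM (0.47 ± 0.09, adjusted p = 0.0308, and 0.124 to 0.231 without a Jmjd6-/- or the unstimulated WT library). No call was made among 16 SR-related proteins, 13 factors of 3′ splice site recognition or 10 factors of nonsense-mediated decay in any comparison. By genotype under RANKL, 5 of these 16, 9 of 13 and 9 of 10 had positive differences. The median log2 differences were -0.03, 0.03 and 0.17, beside 0.01 over all entries tested. These counts and medians were not taken without WT RANKL replicate 2. With RANKL, 3 of 16, 9 of 13 and 3 of 10 were positive, with medians of -0.13, 0.07 and -0.09, beside -0.02 over all entries tested. Of the 11 kinases and import receptors, 1 was positive with RANKL (median -0.16). By contrast, 14 of 19 proliferation genes were higher with RANKL, beside 14.7% of all entries tested called in either direction. The 19 proliferation genes had a median log2 difference of 0.99 beside -0.04 over the 28 genes. Their summed level was 250 to 300 FPKM unstimulated and 391 to 581 FPKM with RANKL, and its part in the RANKL differences above was not tested.

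The 2 WT RANKL libraries differed from each other more than the 2 Jmjd6-/- RANKL libraries. The median absolute log2 difference between replicates over the 28 genes was 0.22 in WT and 0.06 in Jmjd6-/-, close to the 0.24 and 0.06 over entries averaging 10 FPKM or more. The direction within WT was less even: 22 of 28 genes (78.6%) were lower in replicate 2, beside 49.9% of those entries. The 14 genes of lower GC content (40.0 to 45.4%) were all lower in replicate 2, with a median of -0.31, and the 14 of higher GC content (45.9 to 56.8%) were lower in 8, with a median of -0.07. Across the 28 genes, which share these 2 libraries, the replicate difference and GC content had a Pearson r of 0.70 in WT and 0.12 in Jmjd6-/- (n = 28 genes), and across 11833 entries with a mean of at least 1 FPKM r was 0.46 in WT. The 28 genes are of low GC content, with a median of 45.7% beside 49.7% of protein-coding genes. With the trend on GC content taken out, Srsf10 was 0.44 higher in Jmjd6-/- over both conditions (log2, adjusted p = 0.0237 in limma) and 0.47 higher under RANKL (adjusted p = 0.0769), and the RANKL differences of Srsf5 and Srsf6 were -0.22 and -0.23 (adjusted p of 0.178 and 0.0652), while that of Hnrnpr was -0.14 (adjusted p = 0.228), of Hnrnpc -0.12 and of Hnrnph1 -0.069.

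**Figure D4:**
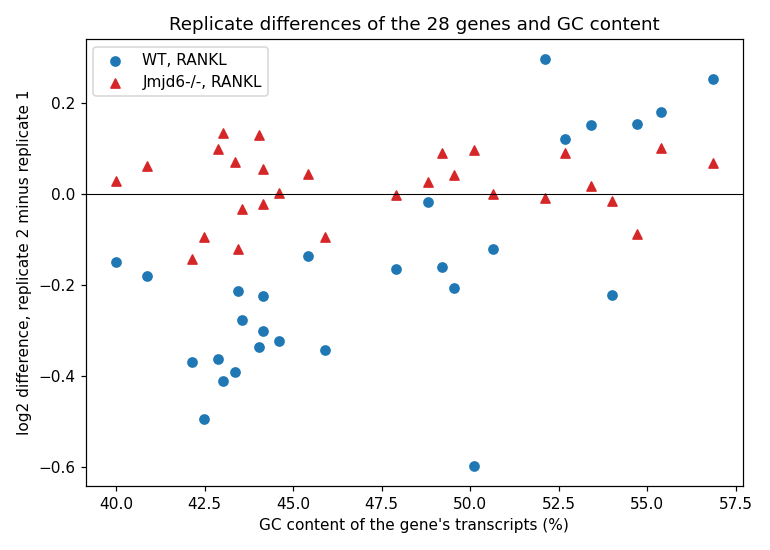
Log2 difference between RANKL replicate 2 and replicate 1 against GC content for the 28 genes, in WT (blue circles) and Jmjd6-/- (red triangles). In WT the genes below the median GC content all lie below 0 (median -0.31), while the Jmjd6-/- points lie between -0.14 and 0.13.

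A gene's FPKM sums its isoforms, and these genes have many. In the GENCODE annotation of GRCm38, 16 of the 28 (57.1%) had a transcript marked for nonsense-mediated decay and 19 (67.9%) a retained intron, against 20.9% and 41.6% of 21923 protein-coding genes, and the median gene had 7.5 transcripts against 3. Of the 28, 21 (75%) had at least 1 of these classes, against 47.5% of protein-coding genes. Srsf10 was not among the 21, although the study lists an intron of Srsf10 among those retained more in RANKL-stimulated Jmjd6-/- stroma. The same list also holds an intron of an Hnrnp gene, apparently Hnrnpl, and an intron of the SR protein kinase Srpk2. Which isoforms were made was not tested here, since the values used are per gene.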

How the data were processed

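Poly-A RNA of 6 libraries of 2-DG-treated fetal thymic stroma was sequenced by the authors in paired-end mode. Per the labels, TopHat2 2.0.10, Cufflinks 2.1.1 and mm10 were used, and the deposited values are FPKM per gene, used here without rescaling. The paper gives a strand-specific setting while no step that keeps strand is described, so that overlapping genes are uncertain. Fragment numbers (about 15000000 to 33000000 per library) were estimated from the steps between FPKM values under 0.15 and are approximate. Groups and replicate numbers follow the sample titles, since the treatment field gives RANKL for every sample. limma 3.58.1 in R 4.3.3 was fitted to log2(FPKM + 0.1) over the 15894 entries averaging 0.1 FPKM or more, allowing the variance to follow the mean, and p-values were adjusted by Benjamini-Hochberg over them. Genotypes were compared under RANKL with a mean per condition, and over both conditions with RANKL as a term. The effect of RANKL had genotype as a term, and the interaction used the condition means. Genes named were the 5 with the largest difference in each direction under RANKL by genotype and with RANKL, the 3 highest and 3 lowest of each family and Srsf2, plus called genes of the related lists. Members and lists were chosen with earlier results of these data known. Of the families, 1 entry is not reported here. Alternatives changed the constant (1 and 0.01), filter (none and 1 FPKM), trend, scaling, replicate block and libraries used.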

Additional observations from a re-analysis of the deposited data

How the results depend on the processing

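Over 14 to 16 alternatives to the fit of each comparison, 343 of 357 values for single genes of the 2 families kept their direction and their side of the threshold, 13 passed it and 1 changed sign (Hnrnpab by genotype under RANKL, from -0.067 without WT RANKL replicate 1 to 0.23 without replicate 2). The counts of called genes, 0 in each comparison, stayed at 0 in 111 of 122 cases. Replicate numbers 1 and 2 did not mark shared deviations (r = -0.08 between genotypes over 12587 entries). With a replicate block, 1 gene was called higher in Jmjd6-/- under RANKL and 1 over both conditions, both times Srsf10 (adjusted p of 0.0291 and 0.0386 in limma), and the calls over all entries went from 372 to 1477 under RANKL, 864 to 836 over both conditions, 2329 to 2238 with RANKL and 0 to 94 in the interaction. With the GC trend taken out, a choice made after the data were seen, 1 gene was higher by genotype over both conditions (Srsf10) and 1 with RANKL (Hnrnpa3). With 1 library left out at a time, 0 to 2 genes were called higher by genotype under RANKL (Srsf10 and Srsf6 without WT RANKL replicate 1), 0 to 1 higher and 0 to 1 lower over both conditions (Srsf10 without either WT RANKL library, Hnrnph3 without replicate 2), and 0 to 1 higher and 0 to 2 lower with RANKL (Hnrnpa3 without WT RANKL replicate 2, Srsf6 and Hnrnpr without either). The 4 calls of the related lists kept their direction throughout; without a filter Clk1, Clk2 and Prmt6 had adjusted p of 0.0688 to 0.0725, without a trend Clk1, Prmt6 and Rbmx 0.0590 to 0.110, and with equal totals Prmt6 and Rbmx 0.0689 and 0.0795. Rbmx was also not called with median-ratio scaling (0.0616), quantile normalization (0.0525), the replicate block (0.0589) or the GC trend taken out (0.0859). Fits with a library left out assume that a lone library varies like the others. Depth limits Srsf12 most, and duplicates that may be technical limit every p-value and interval.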
